A study of Mus musculus with 9 samples.

Results

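Axon guidance ligands and their receptors were compared between dorsal root ganglia (DRG), lumbar spinal cord (the cord) and hind paw of mice treated with paclitaxel and an antagonist of the lymphotoxin-beta receptor (LTβR). The genes were taken by symbol: the semaphorins of classes 3 to 7, the plexins, the neuropilins Nrp1 and Nrp2, the ephrins, the Eph receptors, the Slits, the Robos, the netrins Ntn1 and Ntn4, Dcc and the Unc5 family. This rule matched 69 of the 22609 genes counted. Of these, 67 encode guidance ligands (33) or receptors (34), and all 67 had enough reads to enter the test over 16091 genes. The other 2 share only the start of the symbol Unc5 and were left out of every count below. Unc50, a protein of the Golgi membrane, was 34.5 ± 1.33 CPM in DRG, 37.8 ± 5.82 CPM in the cord and 56.1 ± 3.76 CPM in paw (CPM, reads scaled to the depth of the library; mean ± SD, n = 3), and Unc5cl had 7, 35 and 0 reads in total and was not tested.

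The libraries came from 9 tissue samples, 3 each of DRG from the lumbar levels L3 to L5, lumbar spinal cord and punch biopsies of hind paw, from male C57 mice aged 8 to 12 weeks. Every sample had the same treatment: paclitaxel (PTX, a chemotherapy drug that stabilises microtubules and causes painful neuropathy) in 2 intraperitoneal injections of 2 mg/kg, and the LTβR antagonist, 15 µg into the hind paw together with 15 µg intrathecally. Tissue was taken 6 days after the last PTX injection. The sample titles place the antagonist on days 1 and 4 during PTX, whereas the series text places it between the PTX injections and 1 day after them. Samples of mice given control IgG in place of the antagonist were not analysed here, so the comparisons are between tissues that share 1 treatment and say nothing of what PTX or the antagonist changed. Whether each sample is from its own mouse is not stated in the labels, and the p-values then measure only the spread between these samples.

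Guidance cues are secreted or membrane-bound proteins that attract or repel growing axons, and in adult tissue they also act on blood vessels, epithelia, synapses and glia. Class 3 semaphorins are secreted and signal through a neuropilin that binds the ligand and a plexin that carries the signal inward, while the semaphorins of classes 4 to 7 are held in the membrane and mostly bind plexins directly. Netrins act through Dcc (attraction) and Unc5 receptors (repulsion), and Slits through Robo receptors. Ephrins and Eph receptor tyrosine kinases are both anchored in membranes and signal in both directions where cells touch, with ephrins of the A class held by a lipid anchor and those of the B class spanning the membrane.

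Each library held between 15537545 and 23229724 reads assigned to genes, so that 3 reads, taken here as the floor of detection, corresponded to between 0.134 and 0.185 CPM. Marker genes followed the tissue labels. The summed level of 8 sensory neuron markers was 5179.7 to 6171 CPM in DRG, 80.5 to 96.4 CPM in the cord and 8.21 CPM at most in paw. That of 5 spinal neuron markers was 607 to 695 CPM in the cord and 1.77 CPM at most elsewhere. That of 6 keratinocyte markers was 26318 to 35989.6 CPM in paw and 27.9 CPM at most elsewhere. The pieces held other cells too. Schwann and satellite glia markers (8 genes, none at 0) summed to 28359, 21352 and 21957 CPM in the DRG libraries and 8303, 8357 and 13473 CPM in the spinal cord libraries, fibroblast and matrix markers (6 genes) to 485, 385 and 1158 CPM in the cord, and skeletal muscle markers (6 genes) to 606, 943 and 31.6 CPM in DRG and 13312 to 17005 CPM in paw. The paw piece therefore held muscle as well as skin, and the third spinal cord library stood above the other two in Schwann cell and fibroblast markers. In bulk tissue, fewer cells of a type and less RNA per cell cannot be told apart.

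Most guidance genes differed between the tissues, as did most of all genes tested. Dcc, the Unc5 genes other than Unc5c and several Eph receptors were highest in spinal cord. Several semaphorins and plexins were highest in DRG, and some ephrins with some other Eph receptors in paw. In paw more guidance genes were lower than higher. A difference was called where the Benjamini-Hochberg adjusted p of edgeR's quasi-likelihood test over all genes was under 0.05. Between DRG and spinal cord, 51 of 67 were called (76.1%), against 59.6% of all genes tested: 27 were higher in DRG, where 29% of all genes were, and 24 were higher in spinal cord, where 30.6% were. Differences of at least 2-fold numbered 18 on the DRG side (26.9%, against 14.1% of all genes) and 21 on the spinal cord side (31.3%, against 14.4%). The median size of the log2 difference, whatever its sign, was 1.17 for the guidance genes and 0.54 for all genes.

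Between paw and DRG, 57 of 67 were called (85.1%), close to the 80.5% of all genes. Of these, 22 were higher in paw (32.8%, against 39.7% of all genes) and 35 were higher in DRG (52.2%, against 40.8%). Between paw and spinal cord, 54 were called (80.6%, against 81.6%), with 21 higher in paw (31.3%, against 39.9%) and 33 higher in spinal cord (49.3%, against 41.7%). The median log2 fold change was -0.59 for paw over DRG and -0.62 for paw over spinal cord, where all genes had medians of -0.02 and -0.03; for DRG over spinal cord it was 0.06, against -0.02. Differences of at least 2-fold numbered 15 on the paw side and 30 on the DRG side (background 25.5% and 27.7%), and 18 on the paw side and 28 on the cord side (background 26.2% and 28.2%). Libraries of the compared tissues did not overlap for 51, 56 and 55 of the 67 in DRG against spinal cord, paw against DRG and paw against spinal cord, where 64.5%, 83.4% and 83.5% of all genes did not. The comparisons share libraries, each tissue standing in 2 of the 3, and are given side by side.

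A gene was counted as highest in a tissue where it was called above both others with a log2 fold change of at least 1 in each. By this count 13 guidance genes were highest in DRG (19.4%, against 7% of all genes), 15 in the cord (22.4%, against 9.71%) and 11 in paw (16.4%, against 20.1%). The DRG genes were Sema3b, Sema3g, Sema4c, Sema4f, Sema5a, Sema6c, Slit1, Nrp2, Plxna2, Plxnc1, Plxnd1, Robo2 and Epha6, mostly semaphorins and parts of their receptors. The spinal cord genes were Efna2, Efnb3, Sema5b, Sema6a, Sema6b, Dcc, Unc5a, Unc5b, Unc5d, Robo3, Epha7, Epha8, Epha10, Ephb1 and Ephb2. They included 4 of the 5 Dcc and Unc5 genes and 5 of the 14 Eph receptors. The paw genes were Efna3, Efna4, Epha1, Epha2, Ephb3, Ephb4, Sema3c, Sema3d, Slit3, Ntn4 and Plxnb2. Counted the other way, 22 were lowest in paw (21.4% of all genes were), 6 in the cord (6.77%) and 5 in DRG (4.77%).

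**Figure D1:**
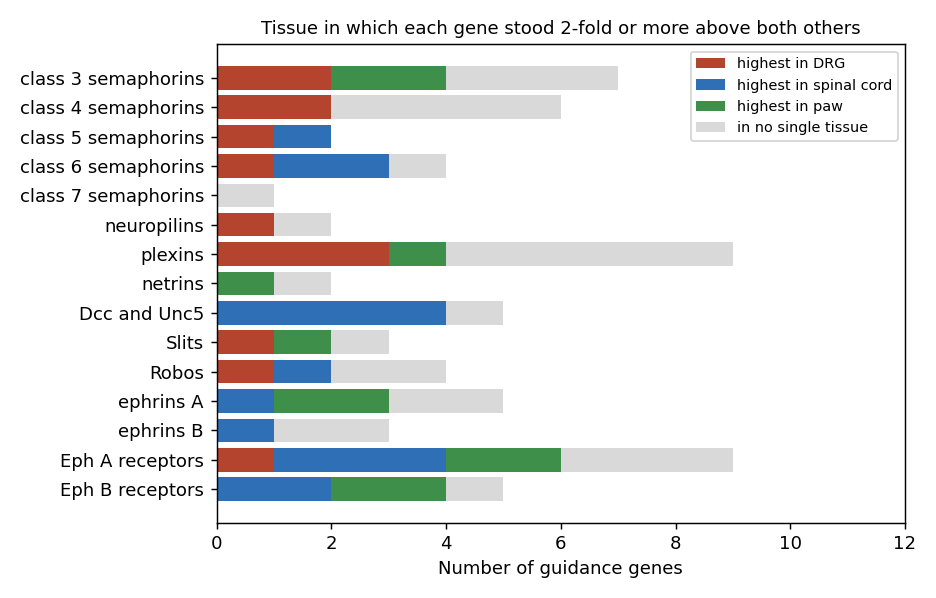
Number of guidance genes in each family (bars, horizontal axis in genes) that stood at least 2-fold above both other tissues in DRG, spinal cord or paw, with the rest in grey. Dcc and Unc5 genes were highest in spinal cord only (4 of 5), class 3 semaphorins in DRG or paw, and plexins in DRG (3) or paw (1).

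**Figure D2:**
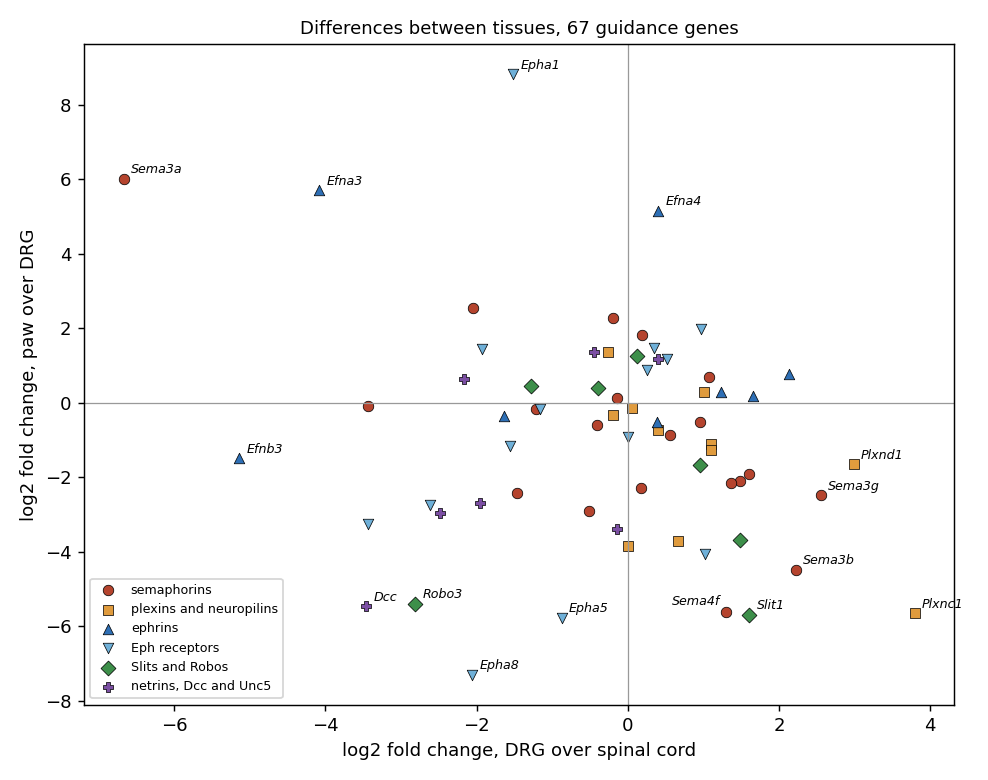
Fitted log2 fold change of each of the 67 guidance genes for DRG over spinal cord (horizontal axis) and paw over DRG (vertical axis), with symbols by family and selected genes named. Both axes use the same DRG libraries, so a slope in the cloud is no result; Dcc, Epha8 and Robo3 had at most 1 read in paw, and their height is set by the model rather than measured.

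Promoter sequences are shown for 6 genes that carry the tissue contrasts: Plxnc1, at its highest in DRG; Sema3a, nearly absent there; Ephb1, a receptor highest in spinal cord, chosen for display after its values were seen; and Epha1, Efna3 and Efna4, at their highest in paw, of which the last 2 lie next to each other on chromosome 3 and rose together there. Each is the 250 bases before the annotated start, 5′ to 3′ on the gene's strand, from RefSeq on GRCm38.p6, a later build than the mm9 to which the reads were aligned. Efna3 has 2 annotated starts, of which the outermost was used. The positions are chr10:94944846-94945095 (minus strand) for Plxnc1, chr5:13396534-13396783 (plus strand) for Sema3a, chr9:102354694-102354943 (minus strand) for Ephb1, chr6:42373269-42373518 (minus strand) for Epha1, chr3:89322940-89323189 (minus strand) for Efna3 and chr3:89338029-89338278 (minus strand) for Efna4. Capitals mark matches on either strand to any of 6 promoter motifs. The TATA box was searched as TATAAA and the GC box, bound by Sp proteins, as GGGCGG. The box bound by factor NF-Y was searched as CCAAT, and the E-box, bound by basic helix-loop-helix proteins, as CACGTG. The element bound by CREB was searched as TGACGTCA, and the site bound by AP-1 as TGANTCA, with N for any base, which cannot match inside it.
Plxnc1: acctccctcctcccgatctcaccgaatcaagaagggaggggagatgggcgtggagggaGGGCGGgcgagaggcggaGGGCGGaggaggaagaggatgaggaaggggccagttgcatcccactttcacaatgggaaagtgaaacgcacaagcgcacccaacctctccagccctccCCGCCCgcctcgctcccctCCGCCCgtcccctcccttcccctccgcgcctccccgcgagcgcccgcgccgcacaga
Sema3a: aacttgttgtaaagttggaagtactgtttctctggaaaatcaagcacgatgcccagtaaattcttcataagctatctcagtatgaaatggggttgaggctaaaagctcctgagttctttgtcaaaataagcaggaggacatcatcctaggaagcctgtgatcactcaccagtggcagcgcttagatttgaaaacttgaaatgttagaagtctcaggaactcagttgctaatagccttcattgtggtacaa
Ephb1: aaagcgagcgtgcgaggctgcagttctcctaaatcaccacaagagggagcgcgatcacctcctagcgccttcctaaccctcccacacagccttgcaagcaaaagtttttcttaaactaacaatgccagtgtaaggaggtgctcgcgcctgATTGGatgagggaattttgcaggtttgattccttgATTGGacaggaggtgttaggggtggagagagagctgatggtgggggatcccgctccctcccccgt
Epha1: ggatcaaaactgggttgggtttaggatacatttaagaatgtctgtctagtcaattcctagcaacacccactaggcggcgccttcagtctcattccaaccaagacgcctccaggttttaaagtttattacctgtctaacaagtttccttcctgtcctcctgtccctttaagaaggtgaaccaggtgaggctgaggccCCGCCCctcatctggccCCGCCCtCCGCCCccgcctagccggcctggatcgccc
Efna3: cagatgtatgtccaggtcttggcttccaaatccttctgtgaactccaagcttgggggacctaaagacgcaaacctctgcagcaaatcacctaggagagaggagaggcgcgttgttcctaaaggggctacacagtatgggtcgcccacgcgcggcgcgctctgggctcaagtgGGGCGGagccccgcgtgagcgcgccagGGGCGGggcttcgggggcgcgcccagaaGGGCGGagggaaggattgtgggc
Efna4: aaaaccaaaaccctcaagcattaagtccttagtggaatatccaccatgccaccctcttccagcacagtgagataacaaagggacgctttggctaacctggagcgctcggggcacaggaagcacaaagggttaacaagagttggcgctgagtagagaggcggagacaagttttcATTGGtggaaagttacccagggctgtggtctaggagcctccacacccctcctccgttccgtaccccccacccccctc

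These windows differed in make-up as well as in the tissue of the gene. Plxnc1 held 4 GC boxes, Epha1 and Efna3 held 3 each, Ephb1 held 2 CCAAT boxes, Efna4 held 1 and Sema3a held no match, and GC content ran from 40.8% in Sema3a to 68.8% in Plxnc1. Across the 73 promoters listed for 57 of the 67 guidance genes, a GC box was present in 52 (71.2%), against 32.7% of all 32851 promoters, and a TATA box in 2 (2.74%), against 12.4%. CCAAT was in 27.4% of guidance promoters against 33.8%, the AP-1 site in 4.11% against 6.75%, the CRE in 1.37% against 1.55%, and the E-box in 5.48% against 6.02%. These matches describe the letters only and were not tested against expression.

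Among the secreted class 3 semaphorins the tissues were split, with Sema3b and Sema3g highest in DRG, Sema3c and Sema3d highest in paw, and Sema3a lowest in DRG. Sema3a, which repels sensory axons, had 0.0894, 0.145 and 0.099 CPM in the 3 DRG libraries, from 2, 3 and 2 reads. It had 12.9, 11.2 and 11.6 CPM in the cord and 7.18, 8.46 and 7.19 CPM in paw. No DRG library came near either other tissue, and all 3 lay at or under the floor of 3 reads. From 701 reads in spinal cord and 7 in DRG, spinal cord was 108-fold higher, with a 95% counting interval of 52 to 269, and paw, from 379 reads, was 68.7-fold above DRG (33 to 172). Both differences were called (edgeR adjusted p = 1.42e-09 and 7.20e-10). Paw was also below spinal cord, with a log2 fold change of -0.65 ± 0.14 (± SE, edgeR adjusted p = 0.00124).

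Sema3b was the most abundant guidance gene in DRG per kilobase of exon (201 CPM per kb, against 46.4 for Sema7a, the next). It had 899, 644 and 692 CPM in DRG, 109, 101 and 268 CPM in the cord and 30.4, 34.1 and 35.5 CPM in paw. The tissues did not overlap, but the third spinal cord library was above the other two, as it was for Schwann cell markers, whose part in this value was not tested. The log2 fold change was 2.22 ± 0.36 for DRG over spinal cord (edgeR adjusted p = 0.000713) and -2.26 ± 0.37 for paw over spinal cord (edgeR adjusted p = 0.000378). Without the third spinal cord library they became 2.83 and -1.62, and both stayed called. Sema3g, a class 3 semaphorin also made by blood vessels, had 162, 135 and 133 CPM in DRG, 16.6, 19.9 and 36.6 CPM in the cord and 23.1, 24.7 and 28.9 CPM in paw. DRG stood apart, at 2.56 ± 0.26 over spinal cord (edgeR adjusted p = 2.33e-05), while paw and spinal cord overlapped, at 0.07 ± 0.26 (edgeR adjusted p = 0.802); without the third spinal cord library the latter was 0.52 (edgeR adjusted p = 0.00663).

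Sema3c, which can attract axons and acts in blood vessel growth, was highest in paw. It had 62, 81.8 and 86.8 CPM there, 16.5, 14.2 and 17 CPM in DRG and 17.5, 18.4 and 18.9 CPM in the cord. Paw lay above both, by 2.27 ± 0.13 over DRG and 2.08 ± 0.13 over spinal cord (edgeR adjusted p = 1.84e-08 and 3.63e-08), and DRG and spinal cord differed by -0.20 ± 0.13, which was not called (edgeR adjusted p = 0.229). Sema3d, the neighbour of Sema3a on chromosome 5, was likewise highest in paw, at 8.2 ± 0.989 CPM, 7.19 ± 0.426 CPM and 29.3 ± 2.23 CPM in DRG, spinal cord and paw. Sema3f, the main ligand of Nrp2, had 38.7, 51.9 and 41.2 CPM in DRG, 19.6, 22.5 and 20.6 CPM in the cord and 72.9, 70.2 and 69.1 CPM in paw. All 3 tissues were apart, spinal cord lowest, with DRG over spinal cord at 1.07 ± 0.12 and paw over DRG at 0.69 ± 0.11 (edgeR adjusted p = 1.23e-05 and 0.000164). Sema3e, the ligand that binds Plxnd1 without a neuropilin, was the least divided, at 15.4, 17.3 and 19.7 CPM in DRG, 12.2, 10.8 and 12.7 CPM in the cord and 7.9, 9.75 and 11.1 CPM in paw; DRG was called above spinal cord (0.55 ± 0.15, edgeR adjusted p = 0.00683) and above paw. Paw and spinal cord overlapped, at -0.31 ± 0.15 (edgeR adjusted p = 0.0782), a difference that was called with a replicate block (adjusted p 0.0477) and without paw 3 (-0.43, adjusted p 0.0319).

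The receptors of these ligands were present in all 3 tissues, and several were highest in DRG. Nrp1, which binds Sema3a and also vascular growth factors, had 67.3, 54.6 and 76 CPM in DRG, 34, 31 and 33.3 CPM in the cord and 73.2, 81.4 and 89.1 CPM in paw. Spinal cord was the lowest, at 1.01 ± 0.13 for DRG over it (edgeR adjusted p = 3.47e-05). DRG and paw overlapped, and the difference of 0.30 ± 0.12 (edgeR adjusted p = 0.0425) was lost without any 1 of 4 libraries: DRG 1 (adjusted p 0.0764), DRG 2 (0.117), paw 2 (0.0727) or paw 3 (0.146). Nrp2, the partner for Sema3f, had 125, 56.5 and 121 CPM in DRG, 38.7, 36.6 and 65.7 CPM in the cord and 47.4, 47.5 and 45.5 CPM in paw. Its second DRG library lay below the third spinal cord library, and the DRG excess of 1.10 ± 0.32 (edgeR adjusted p = 0.0156) lost its call without DRG 1 (0.92, adjusted p 0.0555), spinal cord 1 (0.99, 0.0545) or spinal cord 2 (0.94, 0.0605). Paw and spinal cord did not separate for Nrp2, at -0.00 ± 0.32.

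Plexins carry the semaphorin signal across the membrane. Of the 9, 4 were called higher in DRG than in spinal cord (Plxna2, Plxna4, Plxnc1 and Plxnd1), none lower and 5 were not called. Over all genes tested, 29% were higher in DRG, 30.6% were higher in spinal cord and 59.6% were called. The summed level of the plexins was 1349.9 ± 157 CPM in DRG, 768 ± 218 in the cord and 668 ± 31 in paw. Plxnc1, the receptor of Sema7a, showed the largest DRG excess over spinal cord of all guidance genes. It had 217, 243 and 269 CPM in DRG, 18.1, 17.5 and 16.8 CPM in the cord and 4.49, 5.25 and 4.71 CPM in paw. The groups were far apart, and the log2 fold change was 3.80 ± 0.11 for DRG over spinal cord and -5.66 ± 0.12 for paw over DRG (edgeR adjusted p = 4.36e-10 and 1.07e-11). Plxnd1, the receptor of Sema3e, had 278, 301 and 278 CPM in DRG, 27.1, 26.2 and 54.8 CPM in the cord and 85.5, 92.1 and 97.4 CPM in paw. DRG was highest and spinal cord lowest, at 2.99 ± 0.26 for DRG over spinal cord (edgeR adjusted p = 7.21e-06), with the third spinal cord library above the other two; without it the difference was 3.43.

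The plexin A receptors, which pair with neuropilins, did not all follow that order. Plxna4, which transmits Sema3a signals in sensory neurons, had 129.6, 104 and 148 CPM in DRG, 78, 73.2 and 90.0 CPM in the cord and 9.28, 11 and 8.72 CPM in paw. Paw was lowest, at -3.72 ± 0.16 relative to DRG, and DRG was above spinal cord by 0.66 ± 0.14 (edgeR adjusted p = 9.78e-10 and 0.00141). Plxna3, which transmits Sema3f signals, had 78.4, 40.0 and 74.1 CPM in DRG, 39.7, 38.5 and 67.7 CPM in the cord and 41.1, 40.5 and 34.9 CPM in paw. The tissues overlapped in every pair; DRG over spinal cord was 0.40 ± 0.28 (edgeR adjusted p = 0.252) and reached 0.65 when DRG 2 was left out (adjusted p 0.0378) and 0.73 when spinal cord 3 was (0.0329). Paw below DRG, at -0.73 ± 0.29 (edgeR adjusted p = 0.0406), was lost without DRG 1, DRG 3 or any 1 of the paw libraries, with adjusted p between 0.0812 and 0.131. Plxna1 was called in no comparison, at 126 ± 34.9 CPM, 121 ± 38.8 CPM and 115 ± 5.83 CPM in DRG, spinal cord and paw, and Plxna2 was higher in DRG (148 ± 19.6 CPM) than in spinal cord (69.3 ± 4.78 CPM) or paw (61.1 ± 6.8 CPM).

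The B plexins bind class 4 semaphorins, and here each had its own pattern. Plxnb2 was highest in paw, with 231, 199.96 and 192 CPM there, 96, 65.5 and 78.7 CPM in DRG and 87.7, 75.1 and 125 CPM in the cord. Paw lay above both, by 1.38 ± 0.19 over DRG and 1.12 ± 0.19 over spinal cord (edgeR adjusted p = 5.29e-05 and 0.000244). Plxnb1, the receptor of Sema4d, had 211, 124 and 166 CPM in DRG, 154, 142 and 277 CPM in the cord and 132, 138 and 126 CPM in paw and was called in no comparison; for DRG over spinal cord the value was -0.19 ± 0.27, and it was 0.19 without the third spinal cord library. Paw over spinal cord was -0.53 ± 0.27 (edgeR adjusted p = 0.0944), passed without spinal cord 2 (-0.69, adjusted p 0.0464) and was -0.12 without spinal cord 3 (adjusted p 0.552). Plxnb3 was low in paw only, at 108 ± 30.4 CPM, 108 ± 33.3 CPM and 7.51 ± 0.661 CPM in DRG, spinal cord and paw.

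**Figure D3:**
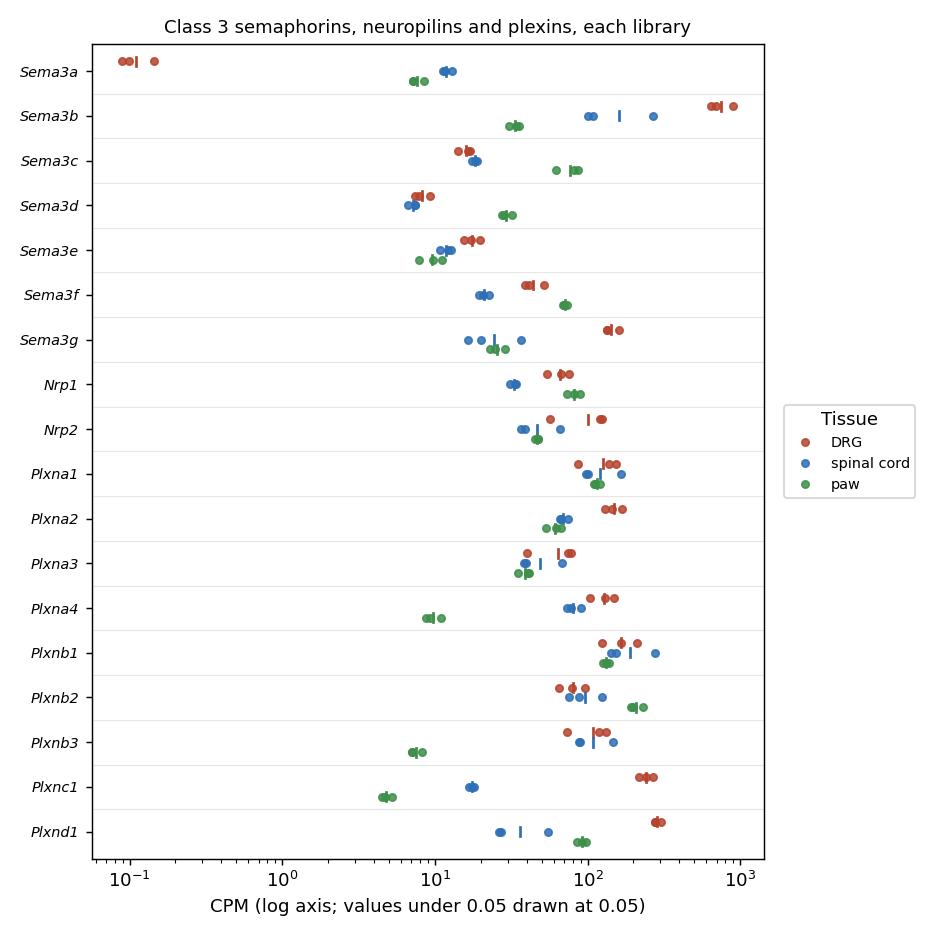
CPM (log axis) of class 3 semaphorins, neuropilins and plexins in each library (points) with the mean of each tissue (bars). Sema3a in DRG sits at or under 3 reads (0.0894 to 0.145 CPM), and Plxnc1 lies between 217 and 269 CPM in DRG and at 18.1 CPM or less elsewhere.

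Most membrane-bound semaphorins were lower in paw than in DRG, and most were lower than in spinal cord. Of the 13 in classes 4 to 7, 1 was called higher in paw than in DRG (Sema4a) and 9 were lower, where 40.8% of all genes were. Against spinal cord, 2 were higher in paw (Sema4a and Sema4b) and 8 were lower, where 41.7% of all genes were. Sema4d, Sema4f, Sema5a, Sema5b, Sema6d and Sema7a were below both neural tissues. Sema4a, which also acts on immune cells, had 14.2, 17.9 and 13.1 CPM in DRG, 66.9, 67 and 52.1 CPM in the cord and 92.9, 90.7 and 80.0 CPM in paw. DRG was the lowest, at -2.04 ± 0.14 relative to spinal cord, and paw was 2.55 ± 0.15 over DRG (edgeR adjusted p = 2.84e-07 and 1.31e-08). Sema4f, a class 4 member studied in Schwann cells, had 129.5, 165 and 143 CPM in DRG, 59.1, 63.8 and 55 CPM in the cord and 2.51, 2.84 and 3.47 CPM in paw. It fell by 5.63 on the log2 scale from DRG to paw (SE 0.15, edgeR adjusted p = 3.13e-11).

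Sema4c, a ligand of Plxnb2, had 214, 147 and 171 CPM in DRG, 43.9, 47.6 and 98.4 CPM in the cord and 38.7, 46.8 and 38 CPM in paw. DRG lay above spinal cord by 1.49 ± 0.30 (edgeR adjusted p = 0.00239), with the third spinal cord library again above the other two. Paw against spinal cord was -0.62 ± 0.30 and not called (edgeR adjusted p = 0.0852), and was called in DESeq2 (adjusted p 0.0358) and without spinal cord 1 (-0.81, 0.0253). Without spinal cord 3 it was -0.12 (adjusted p 0.513). Sema4d, the ligand of Plxnb1, had 63, 72.5 and 68.6 CPM in DRG, 97.6, 85.4 and 88.4 CPM in the cord and 50.1, 45.6 and 39.9 CPM in paw; the groups were apart and close, with DRG at -0.41 ± 0.11 relative to spinal cord (edgeR adjusted p = 0.00545). Sema4g was level, with means of 83.5, 92.4 and 91.6 CPM and no call in any comparison, and its log2 differences lay between -0.15 and 0.13. Sema4b, at 60.2 ± 7.18 CPM, 31.1 ± 1.75 CPM and 42.4 ± 5.5 CPM, was called in all 3 comparisons, DRG highest.

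In class 5 the 2 members went opposite ways between the neural tissues. Sema5a had 239, 183 and 204 CPM in DRG, 68.7, 70.7 and 104 CPM in the cord and 49.9, 44.5 and 46.2 CPM in paw, and DRG was 1.36 ± 0.16 over spinal cord (edgeR adjusted p = 2.38e-05). Sema5b had 8.42 ± 2.22 CPM in DRG, 23.3 ± 0.273 CPM in the cord and 1.57 ± 0.276 CPM in paw, and DRG was -1.47 ± 0.18 relative to spinal cord (edgeR adjusted p = 2.35e-05). In class 6, whose members bind A plexins, Sema6b and Sema6a were highest in spinal cord, with means of 79.3 CPM against 7.33 in DRG and 6.94 in paw, and 71.5 against 30.8 and 27.3. Sema6c was highest in DRG, with 186, 152 and 121 CPM, 43.3, 45.6 and 61.4 CPM in the cord and 26.2, 43.9 and 51 CPM in paw (1.61 ± 0.26 for DRG over spinal cord, edgeR adjusted p = 0.000454). Sema6d was shared by DRG (163, 119 and 173 CPM) and spinal cord (135, 117 and 151 CPM), which overlapped, and lower in paw (27.9, 32.5 and 32.5 CPM); DRG over spinal cord was 0.17 ± 0.14 (edgeR adjusted p = 0.328), and 0.32 without DRG 2 (adjusted p 0.0448).

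Sema7a, which is held by a lipid anchor and binds Plxnc1 as well as integrins, did not follow its receptor. It had 145, 174 and 139 CPM in DRG, 219, 246 and 188 CPM in the cord and 17.1, 18.9 and 25.1 CPM in paw. Spinal cord was highest, with DRG at -0.51 ± 0.15 relative to it (edgeR adjusted p = 0.0114) and paw at -3.42 ± 0.17 (edgeR adjusted p = 3.13e-09). Plxnc1 stood at 3.80 ± 0.11 for the same comparison of DRG with spinal cord. Among the other ligand and receptor pairs, Sema3a was lowest in DRG while Nrp1 and Plxna4 were lower in spinal cord than in DRG, and Sema3e and Plxnd1 were both higher in DRG than in spinal cord.

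Dcc and the Unc5 genes other than Unc5c were concentrated in the spinal cord, whereas Ntn1 and Ntn4 were not. Ntn1, a secreted cue, had 39.3, 21.4 and 22 CPM in DRG, 37.7, 36.2 and 39.5 CPM in the cord and 66.4, 67.4 and 80.9 CPM in paw. Paw was highest, at 1.37 ± 0.21 over DRG and 0.92 ± 0.21 over spinal cord (edgeR adjusted p = 0.000104 and 0.00164). DRG and spinal cord overlapped through the first DRG library, at -0.45 ± 0.21 (edgeR adjusted p = 0.0834), and without that library the value was -0.80 (adjusted p 0.00029; limma-voom, with all libraries, gave 0.0466). Ntn4, a netrin of basement membranes, was also highest in paw, at 19.1 ± 4.6 CPM against 8.52 ± 2.16 CPM in DRG and 6.47 ± 0.952 CPM in the cord.

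Dcc, the attractive netrin receptor, had 13.8, 13.2 and 11.7 CPM in the cord and 1.12, 1.3 and 1.09 CPM in DRG, and a single read in the 3 paw libraries together (0, 0 and 0.0589 CPM). Spinal cord was above DRG in every library, with DRG at -3.46 ± 0.21 (edgeR adjusted p = 8.32e-08). The ratio of spinal cord to paw, from 762 reads and 1 read, was 646, with a 95% counting interval of 116 to 25548. Unc5b, a repulsive receptor also known from blood vessels, had 104, 104 and 104 CPM in the cord, 21.8, 25.3 and 23 CPM in DRG and 39, 35.1 and 35.4 CPM in paw. All 3 tissues were apart, with spinal cord above DRG and DRG below paw (-2.16 ± 0.09 for DRG over spinal cord and 0.64 ± 0.09 for paw over DRG, edgeR adjusted p = 5.24e-09 and 4.27e-05). Unc5c differed from its relatives: it had 15.4, 15.9 and 17.4 CPM in DRG and 16.8, 17.7 and 19.2 CPM in the cord, which overlapped (-0.14 ± 0.13, edgeR adjusted p = 0.359), and 1.92, 1.36 and 1.35 CPM in paw. Unc5a and Unc5d were highest in spinal cord, at 77 ± 12.3 CPM and 15.2 ± 1.73 CPM, against 19.8 ± 3.18 CPM and 2.72 ± 0.574 CPM in DRG and 3.09 ± 0.424 CPM and 0.34 ± 0.0277 CPM in paw. Unc5a shares 34 exon bases with Hk3 on the other strand. The summed level of Dcc and the Unc5 genes was 227 ± 13.9 CPM in the cord, 63.3 ± 5.4 in DRG and 41.5 ± 2.13 in paw. Neo1, also a receptor but not taken by the symbol rule, did not share this order. It was 37.4 ± 5.1 CPM in DRG, 90.6 ± 3.94 CPM in the cord and 120 ± 9.96 CPM in paw. Paw was called above spinal cord for Neo1, by 0.41 ± 0.11 (edgeR adjusted p = 0.0046).

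Slit1, Slit2 and Robo2 were higher in DRG than in paw, and Slit3 was higher in paw. Slit1 had 144, 89.8 and 149.6 CPM in DRG, 31.6, 25.8 and 68.4 CPM in the cord and 2.04, 3.09 and 2.3 CPM in paw. The groups did not overlap, although the second DRG library was low and the third spinal cord library high, and DRG was 1.61 ± 0.37 over spinal cord (edgeR adjusted p = 0.0056) and paw -5.69 ± 0.48 relative to DRG (edgeR adjusted p = 6.24e-06). With spinal cord 1 and 3 both left out, the first of these was 2.33. Slit2, which promotes branching of sensory axons, was ordered in the same way, with 82.6, 60.6 and 75.8 CPM in DRG, 34, 32.3 and 46.7 CPM in the cord and 24.2, 22.8 and 21.8 CPM in paw (0.96 ± 0.15 and -1.67 ± 0.16, edgeR adjusted p = 0.000224 and 1.18e-06). Slit3 went the other way, with 35.6, 38.3 and 42.9 CPM in paw, 21.1, 9.56 and 17.8 CPM in DRG and 13.9, 13 and 17.7 CPM in the cord, and paw was 1.27 ± 0.24 over DRG (edgeR adjusted p = 0.000694).

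The Slit receptors Robo1 and Robo2, neighbours on chromosome 16, had opposite orders between the neural tissues. Robo2 had 138, 132 and 174 CPM in DRG, 52.2, 51.8 and 54.7 CPM in the cord and 13, 11.5 and 9.95 CPM in paw, and DRG was 1.48 ± 0.12 over spinal cord (edgeR adjusted p = 1.21e-06). Robo1 had 18.8, 14.7 and 23.1 CPM in DRG, 46.5, 43.9 and 47.1 CPM in the cord and 31.1, 26.3 and 20.7 CPM in paw, and DRG was -1.28 ± 0.17 relative to spinal cord (edgeR adjusted p = 6.38e-05). Robo1 in paw overlapped DRG, and that call (0.46 ± 0.17, edgeR adjusted p = 0.0279) was lost without DRG 1 (adjusted p 0.0673), DRG 2 (0.0822), paw 1 (0.147) or paw 2 (0.056). Robo3, which acts at the spinal midline during development, had 114 reads in spinal cord, 17 in DRG and none in paw. It was at least 32.2-fold lower in paw than in spinal cord and at least 4.47-fold lower than in DRG, against a floor of 3 reads over the 3 paw libraries. Robo4, the Robo of blood vessels and neighbour of Robo3 on chromosome 9, was close to level at 17.6 ± 2.29 CPM, 23.1 ± 4.8 CPM and 23.2 ± 2.55 CPM; paw over DRG was 0.39 ± 0.16 (edgeR adjusted p = 0.0373) and was not called with a block for replicate number (adjusted p 0.054) or without DRG 1 (0.0786), DRG 3 (0.138), paw 2 (0.123) or paw 3 (0.0594). DRG over spinal cord was -0.39 ± 0.16 (edgeR adjusted p = 0.0512), and passed without DRG 2 (adjusted p 0.0419) or spinal cord 2 (0.0223), in DESeq2 (0.0487), with either other scaling (0.0483 and 0.0326) and with a minimum of 1 CPM in 3 libraries (0.0489).

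**Figure D4:**
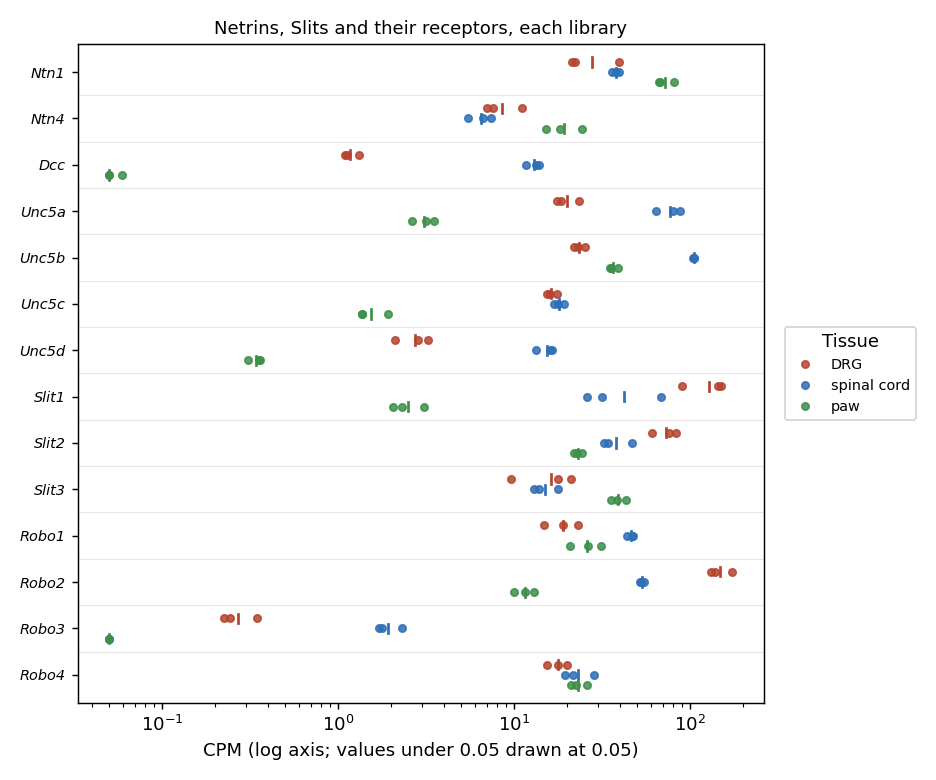
CPM (log axis) of netrins, Dcc, Unc5 receptors, Slits and Robos in each library (points) with the mean of each tissue (bars); libraries with 0 reads are drawn at the lower edge. Unc5b lies at 104 CPM in the spinal cord libraries and at 39 CPM or less elsewhere, and Dcc and Robo3 are at or near 0 in paw.

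Among the ephrins, Efnb3 was highest in spinal cord and Efna3 and Efna4 in paw. Efnb3, a repellent at the spinal midline, was the guidance gene with the highest level per kilobase in spinal cord (92.7 CPM per kb). It had 311, 339.7 and 234 CPM in the cord, 11.1, 7.96 and 5.99 CPM in DRG and 2.27, 2.28 and 4.36 CPM in paw. The highest DRG library lay far below the lowest spinal cord library, and the log2 fold change was -5.14 ± 0.29 for DRG over spinal cord and -6.63 ± 0.32 for paw over spinal cord (edgeR adjusted p = 2.86e-07 and 2.67e-08). Efnb1 and Efnb2 were lowest in spinal cord instead. Efnb2, a ligand of Ephb4, had 54.2, 50.7 and 52.7 CPM in DRG, 21.3, 18.5 and 27.4 CPM in the cord and 67.6, 60.8 and 63.4 CPM in paw, and DRG was 1.23 ± 0.13 over spinal cord (edgeR adjusted p = 8.71e-06); Efnb1 had 49.6, 45.4 and 41.6 CPM, 13.4, 13.5 and 16.5 CPM and 55, 47.5 and 53.7 CPM in the same order, and DRG was 1.66 ± 0.12 over spinal cord (edgeR adjusted p = 2.84e-07). Neither was called between paw and DRG: Efnb2 was 0.28 ± 0.13 (edgeR adjusted p = 0.0572, though called under 9 of 19 alternatives, with adjusted p from 0.00835 without spinal cord 3 to 0.0492 with relative log expression scaling, and 0.0464 with a replicate block), and Efnb1 was 0.19 ± 0.11 (edgeR adjusted p = 0.128, and 0.0211 with upper quartile scaling).

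The adjacent A ephrins Efna1, Efna3 and Efna4 on chromosome 3 were all higher in paw than in DRG. Efna3 had 131, 93.6 and 94.9 CPM in paw, 36.8, 38.2 and 28.7 CPM in the cord and 1.88, 2.03 and 2.23 CPM in DRG. The 3 tissues were apart, with paw 5.70 ± 0.19 over DRG and DRG -4.08 ± 0.19 relative to spinal cord (edgeR adjusted p = 1.61e-10 and 9.73e-09). Efna4 had 23.5, 23.8 and 25.6 CPM in paw, 1.03, 0.483 and 0.495 CPM in DRG and 0.65, 0.467 and 0.402 CPM in the cord. It was high in paw alone, 35.8-fold over DRG (95% counting interval 26.4 to 49.8) and 47.7-fold over spinal cord (33.3 to 71.1, edgeR adjusted p = 2.34e-09 and 1.66e-09), and DRG and spinal cord overlapped. Efna1, which is also made by epithelia and vessels, had 51.7, 46.8 and 55.2 CPM in paw, 26.1, 30.9 and 32.4 CPM in DRG and 6.65, 6.44 and 7.35 CPM in the cord. Here DRG sided with paw: DRG was 2.13 ± 0.12 over spinal cord and paw 2.91 ± 0.12 (edgeR adjusted p = 4.72e-08 and 7.50e-10).

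Efna5, a repellent ligand of Epha4 and other A receptors, differed little, with 36.6, 47.6 and 44.6 CPM in DRG, 34.3, 31.5 and 32.5 CPM in the cord and 34.2, 31 and 24.9 CPM in paw. DRG was just above spinal cord, by 0.39 ± 0.13 (edgeR adjusted p = 0.0236), and the call was lost without DRG 2 (adjusted p 0.0726), DRG 3 (0.0691) or spinal cord 2 (0.068). Efna2 was highest in spinal cord, at 8.7 ± 1.08 CPM against 2.79 ± 0.431 CPM in DRG and 2.19 ± 0.114 CPM in paw.

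Among the 9 Eph A receptors, Epha1 and Epha2 were highest in paw, 3 were highest in spinal cord and Epha6 was highest in DRG. Epha1, an Eph receptor of epithelia, showed the largest paw excess of all guidance genes. It had 135, 91 and 83.3 CPM in paw, 0.268, 0.193 and 0.198 CPM in DRG and 0.45, 0.793 and 0.689 CPM in the cord. Paw was far above the others, 466-fold over DRG with a 95% counting interval of 277 to 852, and 7.30 ± 0.25 on the log2 scale over spinal cord (edgeR adjusted p = 1.45e-10 and 2.06e-10). Between the neural tissues, from 14 and 38 reads, DRG was -1.52 ± 0.48 relative to spinal cord (edgeR adjusted p = 0.0182); the call was lost without DRG 2 (adjusted p 0.066), spinal cord 2 (0.0783) or spinal cord 3 (0.0563), and in limma-voom (0.118). Epha1 overlaps 156 exon bases of Zyx on the other strand, and whether the counting used strand is not given in the sources used here. Zyx was at 118 ± 18.6 CPM in DRG, 120.1 ± 22.2 CPM in the cord and 102 ± 3.78 CPM in paw.

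Epha2, an epithelial receptor that binds Efna1, had 61.4, 57.3 and 51 CPM in paw, 17.8, 11.4 and 13.9 CPM in DRG and 5.5, 6.25 and 10.4 CPM in the cord, and paw was 2.95 ± 0.23 over spinal cord (edgeR adjusted p = 4.73e-07). Epha4, which binds ephrins of both classes and limits axon growth, had 27.4, 28.3 and 25.4 CPM in the cord, 18, 18.9 and 21 CPM in paw and 8.09, 6.66 and 6.59 CPM in DRG. DRG was lowest, at -1.92 ± 0.12 relative to spinal cord, and paw was 1.44 ± 0.12 over DRG (edgeR adjusted p = 1.13e-07 and 4.37e-07). Epha5, a receptor of neurons, was far lower in paw than in the neural tissues, with 16.1, 17 and 17.1 CPM in the cord, 8.49, 8.35 and 10.5 CPM in DRG and 0.12, 0.123 and 0.236 CPM in paw. Paw held 8 reads, and the ratio of DRG to paw was 56.8, with a 95% counting interval of 28.6 to 132 (edgeR adjusted p = 1.16e-09).

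Epha8 and Epha10 were counted in paw by 1 and 2 reads. Epha8 had 17, 19.3 and 15.8 CPM in the cord and 4.56, 4.49 and 3.47 CPM in DRG, and its ratio of DRG to paw was 209, with a 95% counting interval of 37.2 to 8281. Epha10, an Eph receptor without kinase activity, had 4.7, 4.2 and 5.68 CPM in the cord and 0.492, 0.434 and 0.396 CPM in DRG, and its ratio of spinal cord to paw was 119.96 (counting interval 32.9 to 995). Both were above DRG in all 3 spinal cord libraries, with DRG at -2.06 ± 0.18 and -3.44 ± 0.34 (edgeR adjusted p = 2.05e-06 and 4.57e-06). Epha7 was highest in spinal cord, at 12.3 ± 0.747 CPM against 5.46 ± 0.317 CPM in DRG and 4.87 ± 0.851 CPM in paw. Epha6 was highest in DRG, at 5.4 ± 0.756 CPM against 2.65 ± 0.655 CPM in the cord and 0.321 ± 0.192 CPM in paw, where the first library alone moved paw over DRG from -4.05 to -4.65 and paw over spinal cord from -3.03 to -3.63 when left out. Epha3 was under 1 CPM in every tissue mean and was called in no comparison.

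The Eph B receptors fell into those of the spinal cord and those of the paw, and all 5 were called in all 3 comparisons. Of all genes, 59.6% were called for DRG against spinal cord, 80.5% for paw against DRG and 81.6% for paw against spinal cord. Ephb1 and Ephb2 were highest in spinal cord: Ephb1 had 77.8, 82.4 and 78.1 CPM there, 16.1, 10.7 and 11.9 CPM in DRG and 1.62, 2.04 and 2.12 CPM in paw. DRG was -2.62 ± 0.14 relative to spinal cord and paw -5.36 ± 0.18 (edgeR adjusted p = 4.04e-08 and 1.26e-10). Ephb2, which binds Efnb1 and clusters glutamate receptors at synapses, had 29.4, 25.4 and 29.1 CPM in the cord, 11.3, 9.22 and 7.87 CPM in DRG and 4.49, 3.33 and 4.95 CPM in paw, and DRG was -1.56 ± 0.16 relative to spinal cord (edgeR adjusted p = 8.02e-06). Ephb4, known from veins and a receptor of Efnb2, had 52.3, 60.1 and 61.8 CPM in paw, 28.8, 25.7 and 22.7 CPM in DRG and 16.3, 18.6 and 19 CPM in the cord, and paw was 1.17 ± 0.12 over DRG (edgeR adjusted p = 1.78e-06). Endothelial and pericyte markers (5 genes, none at 0) summed to 429 to 489.6 CPM in paw and 132 to 179 CPM in DRG, and their part in the Ephb4 difference was not tested.

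Ephb6, a receptor without kinase activity, was per kilobase the first of all guidance genes in paw (56 CPM per kb, next to 45.1 for Efna3). It had 238, 199.6 and 195 CPM in paw, 119, 116 and 108 CPM in DRG and 90.6, 94.1 and 103 CPM in the cord. Paw was apart, at 0.88 ± 0.10 over DRG (edgeR adjusted p = 5.78e-06). DRG was also above spinal cord, by 0.25 ± 0.10 (edgeR adjusted p = 0.045), but this call was lost in 6 of the 9 fits that left out 1 library, with adjusted p up to 0.15 (spinal cord 1 left out), and with a replicate block (0.0635). The call was also lost with relative log expression scaling (edgeR adjusted p = 0.0598), upper quartile scaling (0.0822) and in DESeq2 (DESeq2 adjusted p 0.0545). Ephb3 was highest in paw, at 50.4 ± 5.49 CPM against 18 ± 1.9 CPM in DRG and 14.1 ± 0.462 CPM in the cord, and its small DRG excess over spinal cord (0.35 ± 0.12, edgeR adjusted p = 0.021) was lost without DRG 1 (adjusted p 0.0914), spinal cord 1 (0.0666) or spinal cord 2 (0.0611).

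**Figure D5:**
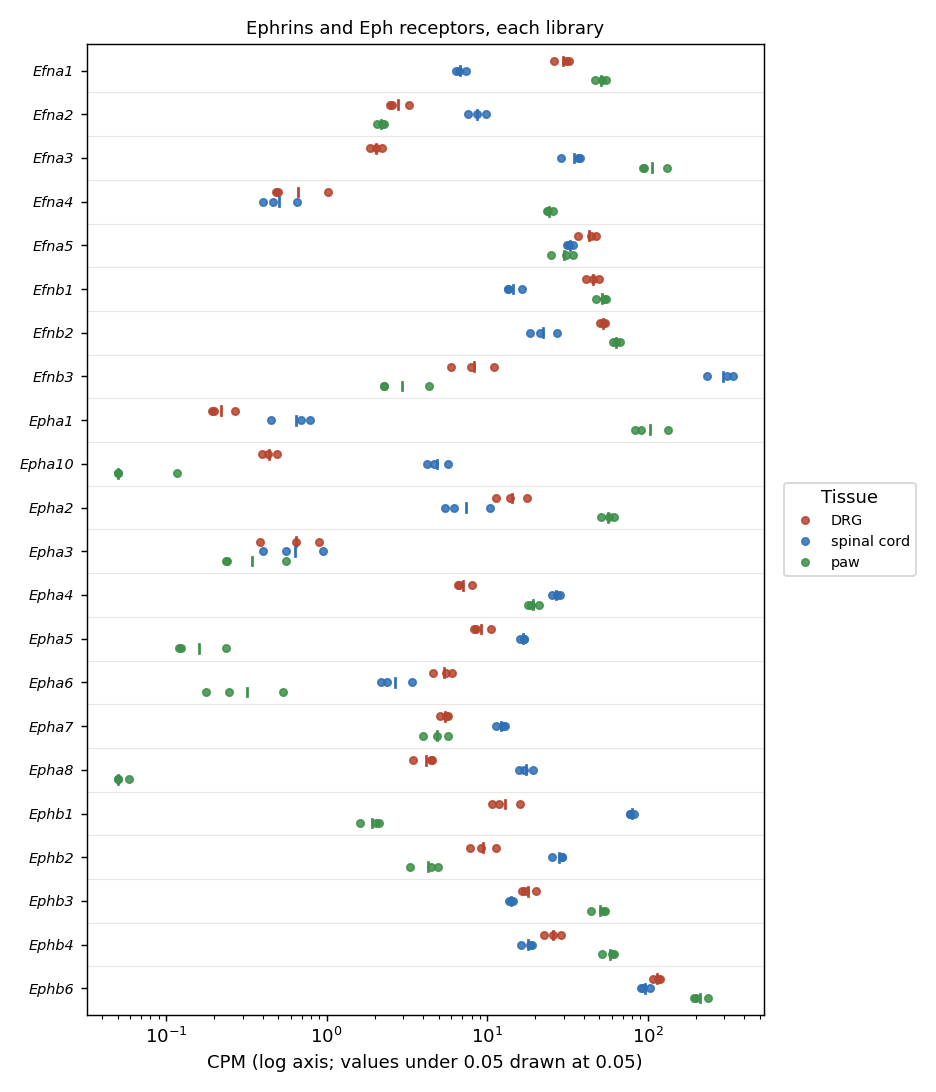
CPM (log axis) of ephrins and Eph receptors in each library (points) with the mean of each tissue (bars); libraries with 0 reads are drawn at the lower edge. Efnb3 lies between 234 and 340 CPM in the cord, Efna3 and Epha1 between 83.3 and 135 CPM in paw, and Epha8 and Epha10 are at or near 0 in paw.

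Other genes of the guidance pathway, the co-receptors, further cues and intracellular effectors, were read from a list of 66, of which 64 were counted and tested. Between DRG and spinal cord, 21 were called higher in DRG, 20 higher in spinal cord and 23 were not called (64.1% called, against 59.6% of all genes). Paw was above DRG for 17 and below it for 38 (85.9% called, close to the 80.5% of all genes), and above spinal cord for 16 and below it for 40 (87.5%, against 81.6%). The neural adhesion molecule Cntn2 showed the largest fall in paw, at 372 ± 57.1 CPM in DRG, 386 ± 101 CPM in the cord and 0.621 ± 0.143 CPM in paw (-9.21 ± 0.28 for paw over DRG). Crmp1, which relays Sema3a signals to the cytoskeleton, was next, at 157 ± 19.7 CPM, 124 ± 8.69 CPM and 0.459 ± 0.141 CPM, and, from 23 reads in paw, DRG was 340.4-fold above it (95% counting interval 227 to 537). The syndecan Sdc1, a heparan sulfate proteoglycan of epithelia, was highest in paw, at 447 ± 88.4 CPM against 31.8 ± 3.19 CPM in DRG and 5.66 ± 0.549 CPM in the cord (6.30 ± 0.18 for paw over spinal cord). Between the neural tissues the largest difference on the DRG side was Dpysl3 (3.69 ± 0.92, with a wide error).

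Several guidance genes shared 1 pattern among libraries of a tissue, low in the second DRG library and high in the third spinal cord library. Plxna3 was 78.4, 40.0 and 74.1 CPM in DRG and 39.7, 38.5 and 67.7 CPM in the cord, and Nrp2, Slit1, Plxna1, Plxnb1 and Plxnb3 had the same form. In all, 25 of the 67 (37.3%) were both lowest in DRG 2 and highest in spinal cord 3, against 21.3% of the 14541 tested genes with a transcript match. The libraries differed by transcript length. Across all genes, the rank correlation between transcript length and a library's deviation from the other two of its tissue was -0.34 in DRG 2 and 0.354 in spinal cord 3, and across the guidance genes -0.3 and 0.276; these are descriptions across genes, which are not independent. The median transcript of the 25 was 6.444 kb, against 4.593 kb for the other guidance genes and 3.348 kb for tested genes. Other libraries also deviated by length. The correlation over all genes was 0.188 in DRG 1, 0.281 in DRG 3, -0.128 in spinal cord 1 and -0.331 in spinal cord 2. Marrow neutrophil and red cell markers (6 genes) summed to 175, 386 and 148 CPM in DRG and 745, 196 and 232 CPM in the cord. The part of length, of these markers, or of the Schwann cell and fibroblast markers that were also high in spinal cord 3, was not tested. Of the 51 guidance genes called between DRG and spinal cord, 50 were also called without spinal cord 3 and 48 without DRG 2.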

How the data were processed

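Whole-number read counts per gene, 1 file a library, were deposited by the authors and taken as raw counts. Per the labels' protocols, poly(A) RNA was made into stranded libraries and sequenced as 50-base single reads, and the submitters' processing notes name bcl2fastq, HTSeq and TopHat2, and the mouse build mm9. Whether HTSeq used strand is not given in the sources used here. Rows that name no gene held 42.9 to 59.3% of each file's reads, and were left out.

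All 9 libraries were fitted in edgeR 4.0.16 (R 4.3.3): filterByExpr by tissue (16091 genes kept), TMM scaling, tissue as the only factor, robust quasi-likelihood fit with 6 residual degrees of freedom, glmQLFTest for the 3 comparisons and Benjamini-Hochberg adjustment over all genes, called under 0.05. Standard errors are the log2 fold change over the square root of F. CPM uses TMM library sizes, and CPM per kb divides by the union exon length of the gene annotation for GRCm38. For few reads the standard error is narrower than counting error. Several such differences are therefore given as ratios, with exact 95% intervals that cover counting error only, as does the floor of 3 reads. Others are given above as fitted values. Among these, spinal cord over DRG was 2.92-fold for Epha1 (counting interval 1.55 to 5.83) and 10.9-fold for Epha10 (7.36 to 16.7). DRG over paw was 598-fold for Cntn2 (421 to 880) and 16.9-fold for Epha6 (10.3 to 29.9). DESeq2 1.42.0, limma 3.58.1 and the other alternatives are in the closing section, and the scripts were tested on simulated data. Replicates of a tissue differed by far more than sampling noise (chi-square per degree of freedom 7.3 to 36.7), so none was merged.

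Genes shown in every library were the highest of each family in a tissue, the 5 largest called differences in each direction with at least 2 CPM, and members of 14 textbook ligand and receptor pairs; others are given by means. The members, the pathway list and the marker lists were chosen with earlier results of these data known. Correlations with length are Spearman's, across genes.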

Additional observations from a re-analysis of the deposited data

How the results depend on the processing

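The members were read under 19 alternatives: each library left out in turn, 2 DRG or 2 spinal cord libraries left out together, a block for replicate number, 2 other scalings, 2 other filters on low counts, DESeq2, limma-voom and a fit of only the 2 tissues compared. Leaving aside the fits with 2 libraries left out together, 47 to 52 were called for DRG against spinal cord, where 50.9 to 61.1% of all genes were. For paw against DRG 53 to 58 were called (70.7 to 82.4% of all genes), and for paw against spinal cord 54 to 55 (72 to 82.3%). In the same fits of all 3 tissues, 11 to 14 were highest in DRG, 10 to 12 in paw and 15 in spinal cord throughout. Of the 162 differences called, 150 were called under every alternative that gave a value, 12 were lost under at least 1, and none changed sign. The lost differences not named above were Epha6, Ephb4 and Sema4d, all for DRG over spinal cord. Leaving out DRG 1 and 2 together lost each of them, and leaving out spinal cord 1 and 3 lost Sema4d. Leaving out at least 1 of these pairs also lost calls of Efna5, Epha1, Ephb3, Ephb6, Nrp1 and Robo1. For paw over DRG, Plxna3 was also lost with relative log expression scaling (edgeR adjusted p = 0.0505) and upper quartile scaling (0.0761), and Nrp1 with no low-count filter (0.0551). The fit of only 2 tissues lost Nrp1 (0.0695) and Robo1 (0.0509) for paw over DRG, and Nrp2 (0.0523) for DRG over spinal cord. Of the 39 differences not called, 10 were called under at least 1 alternative. Leaving out paw 3, which held all paw reads of Dcc, Epha8 and Epha10, moved their fitted paw over spinal cord differences to -10.97, -11.40 and -9.56, from -8.92, -9.36 and -6.70, since no read was then left. Upper quartile scaling moved the median of all genes for paw over DRG from -0.02 to 0.100, and that of the guidance genes from -0.59 to -0.47.

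Between samples with the same replicate number, the correlations of their deviations lay between -0.13 and 0.271 over the pairs of tissues. DRG with spinal cord gave -0.111, 0.271 and 0.217 for numbers 1, 2 and 3, and every pair with paw was negative. The numbers were not taken to pair the samples, and the block was run as an alternative. With the replicate block, 50 guidance genes were called for DRG against spinal cord (59% of all genes were) and 57 for paw against DRG (80.2%). For paw against spinal cord 55 were called (81.3%). In that fit 13, 15 and 11 were highest in DRG, spinal cord and paw. The labels do not tie a number to 1 animal.

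The sign changed under some alternative for 17 log2 differences, none of them called, and the cause was not tested. In DESeq2, Nrp2 (paw over spinal cord) was 0.00838, Plxnb3 (DRG over spinal cord) was -0.00723 and Sema4g (paw over spinal cord) was 0.00306. With DRG 1 and 2 both left out, Efna4 (DRG over spinal cord) was -0.035 and Sema6b (paw over DRG) was 0.036. With the relative log expression scaling, Nrp2 (paw over spinal cord) was 0.0102, Plxnb3 (DRG over spinal cord) was -0.00648 and Sema4g (paw over spinal cord) was 0.00313. With a minimum of 1 CPM in 3 libraries, Plxnb3 (DRG over spinal cord) was -0.00199. In limma-voom, Nrp2 (paw over spinal cord) was 0.053. With no low-count filter, Robo4 (paw over spinal cord) was -0.00554. With only the 2 tissues compared in the fit, Robo4 (paw over spinal cord) was -0.0107. With the replicate block, Nrp2 (paw over spinal cord) was 0.051. With spinal cord 1 and 3 both left out, Nrp2 (paw over spinal cord) was 0.38, Plxna1 (paw over spinal cord) was 0.26, Plxna3 (paw over spinal cord) was 0.032, Plxnb1 (DRG over spinal cord) was 0.26, Plxnb2 (DRG over spinal cord) was 0.11, Sema4g (DRG over spinal cord) was 0.042 and Sema4g (paw over spinal cord) was 0.18. With upper quartile scaling, Epha3 (DRG over spinal cord) was -0.044, Nrp2 (paw over spinal cord) was 0.069, Plxnb3 (DRG over spinal cord) was -0.047, Sema4g (paw over spinal cord) was 0.059 and Sema6b (paw over DRG) was 0.047. Over the 9 fits that left out 1 library, the values ran from -0.055 to 0.63 for Efna4 (DRG over spinal cord), -0.32 to 0.41 for Epha3 (DRG over spinal cord), -0.14 to 0.35 for Nrp2 (paw over spinal cord), -0.10 to 0.37 for Plxna1 (DRG over spinal cord), -0.33 to 0.022 for Plxna1 (paw over DRG), -0.20 to 0.25 for Plxna1 (paw over spinal cord), -0.45 to 0.024 for Plxna3 (paw over spinal cord), -0.39 to 0.19 for Plxnb1 (DRG over spinal cord), -0.16 to 0.30 for Plxnb3 (DRG over spinal cord), -0.093 to 0.22 for Robo4 (paw over spinal cord), -0.12 to 0.52 for Sema3g (paw over spinal cord), -0.13 to 0.10 for Sema4g (paw over spinal cord), -0.27 to 0.0141 for Sema6a (paw over DRG), -0.23 to 0.034 for Sema6b (paw over DRG) and from -0.12 to 0.40 for Slit3 (DRG over spinal cord). Where leaving out libraries left a tissue with 1 sample, that sample was assumed to vary like the others. Depth limited Sema3a in DRG, and Dcc, Epha8, Epha10 and Robo3 in paw, which lay at or under 3 reads a library.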
